A study of Mus musculus with 9 samples.

Results

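MiR-21a-3p (mmu-miR-21a-3p in the table) and miR-21a-5p (mmu-miR-21a-5p) are the mature miRNAs cut from the right and the left side of a single hairpin, Mir21a, and they are 2 of the 1448 mature miRNA rows in the count table. The pair was taken by name, and it had been selected on measured values, namely the read counts of miR-21a-3p in the same 3 contrasts and the ratio of the 2 arms in the same libraries. All levels, fold changes and ratios of the pair are therefore given as a description, without a test. The study sequenced small RNAs from the hippocampus of male C57BL/6J mice to compare lipopolysaccharide (LPS), a component of the outer membrane of Gram-negative bacteria that sets off inflammation, with LPS followed by gastrodin (GAS), a phenolic glucoside of the orchid Gastrodia elata. The mice of the 3 saline libraries received 0.9% saline, those of the 3 LPS libraries 1 mg/kg LPS into the abdominal cavity with 0.12% saline named in their labels, and those of the 3 LPS + GAS libraries the same LPS dose and 100 mg/kg GAS. By the labels GAS followed LPS after 1 h, while the sources differ on the order of the injections. The mice carried no genetic change that the labels name, and a single dose is an acute model. By the methods, mice of these groups were killed after behavioural tests, which were run 6 and 24 h after the injections. The methods do not state at which time the sequenced tissue was taken. The sources do not say whether a library holds the tissue of 1 mouse, so the spread between libraries may be partly technical.

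A miRNA precursor yields a duplex of 2 strands. Usually one strand, the guide, is loaded into an Argonaute protein and kept, and the other, the passenger, is degraded, so that the ratio of the arms reflects both strand choice and the stability of each strand. Argonaute favours the strand whose 5′ end is less stably paired and begins with U or A. MiR-21a-5p is the guide and is known to repress Pdcd4, and transcription of its primary transcript is known to respond to STAT3 and AP-1 in inflamed tissue, in glia among other cells. MiR-21a-3p is usually described as the passenger.

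Both arms are 22 bases long, and they are shown because their first bases and seeds differ. The seed, bases 2 to 8, which pairs with target mRNAs, is in capitals.
miR-21a-5p: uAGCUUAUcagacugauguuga
miR-21a-3p: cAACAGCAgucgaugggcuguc
The sequences are those of RefSeq on GRCm38.p6 and are identical to those in the count table. The hairpin of 92 bases lies on the minus strand at chr11:86584067-86584158. The 5p arm occupies chr11:86584120-86584141 and the 3p arm chr11:86584082-86584103, each in 1 precursor of the table. GENCODE release M21 places the whole hairpin in an exon, in the untranslated part, of a transcript of the protein-coding gene Vmp1, whose transcript has 12 exons and which encodes a membrane protein of autophagy. The arms have unrelated seeds, AGCUUAU and AACAGCA, and no other row of the table has either of them. RefSeq also lists miR-21b and miR-21c, of which miR-21c has the 5p seed, and they were not analysed here. The 5p arm starts with U and holds 36.4% G and C, and the 3p arm starts with C and holds 59.1%. In the structure of lowest free energy computed with RNAfold (−46.2 kcal/mol), 19 bases of the 5p arm pair with the 3p arm. The first base of the 5p arm is in a U-G pair and that of the 3p arm in a C-G pair, while the first 4 bases of each arm are all paired and include 2 G-C pairs.

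Start bases were set beside those of other precursors. Arm pairs were compared in 177 precursors, those with a 5p and a 3p row that both passed a minimum of 10 reads in 3 libraries and that occur in no other precursor. The more abundant arm began with U in 80 of them (45.2%) and the less abundant arm in 41 (23.2%). In the 47 precursors with a log2 arm ratio of at least 6 in either direction, 29 of the more abundant arms (61.7%) and 4 of the less abundant arms (8.51%) began with U. A more abundant arm with U and a less abundant arm with C, as in miR-21a, was found in 13 of those 47 and in 33 of all 177.

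Levels are given as CPM, the reads per 1000000 miRNA reads of a library, after scaling by trimmed mean of M values. Libraries held 10119758 to 11457656 miRNA reads, so 3 reads correspond to 0.262 to 0.296 CPM before that scaling. The list of neuronal and oligodendrocyte miRNAs, the cells of the labelled tissue, was detected with 6 of 6 members and a summed level of 90953 to 130530 CPM.

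MiR-21a-3p was lowest with saline, higher with LPS and highest with LPS + GAS. The saline libraries had 21, 24 and 15 reads of it, the LPS libraries 57, 71 and 71, and the LPS + GAS libraries 224, 154 and 105. In CPM these were 2.01, 2.12 and 1.51 with saline, then 5.67, 5.90 and 7.14 with LPS, then 20.9, 15.6 and 10.1 with LPS + GAS. The groups did not overlap: the lowest LPS library was above the highest saline library, and the lowest LPS + GAS library above the highest LPS library. The group means were 1.88 ± 0.324, 6.24 ± 0.791 and 15.5 ± 5.40 CPM (SD, n = 3 each), which places the spread of the LPS + GAS group well above that of the others in CPM. The ratio of means was 3.32 for LPS to saline, 2.49 for LPS + GAS to LPS and 8.26 for LPS + GAS to saline. By its mean level miR-21a-3p stood in place 525 of the 628 miRNAs that passed the minimum with saline, 411 with LPS and 345 with LPS + GAS.

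MiR-21a-5p, the abundant arm, followed no such order. It had 15919, 15776 and 7883 reads with saline, 11609, 7823 and 9931 with LPS and 16780, 13176 and 11372 with LPS + GAS. The levels were 1520, 1395 and 794 CPM with saline, 1155, 650 and 999 CPM with LPS and 1566, 1333 and 1095 CPM with LPS + GAS. All 3 groups overlapped, and the lowest saline library was below 2 of the 3 LPS libraries. The means were 1237 ± 388, 935 ± 259 and 1331 ± 235 CPM (SD, n = 3 each), with ratios of 0.756 for LPS to saline, 1.42 for LPS + GAS to LPS and 1.08 for LPS + GAS to saline. Its place by mean level was 74, 82 and 70 of 628. The tissue is a mixture of cells, in which fewer cells of a type and less RNA per cell cannot be told apart.

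**Figure D1:**
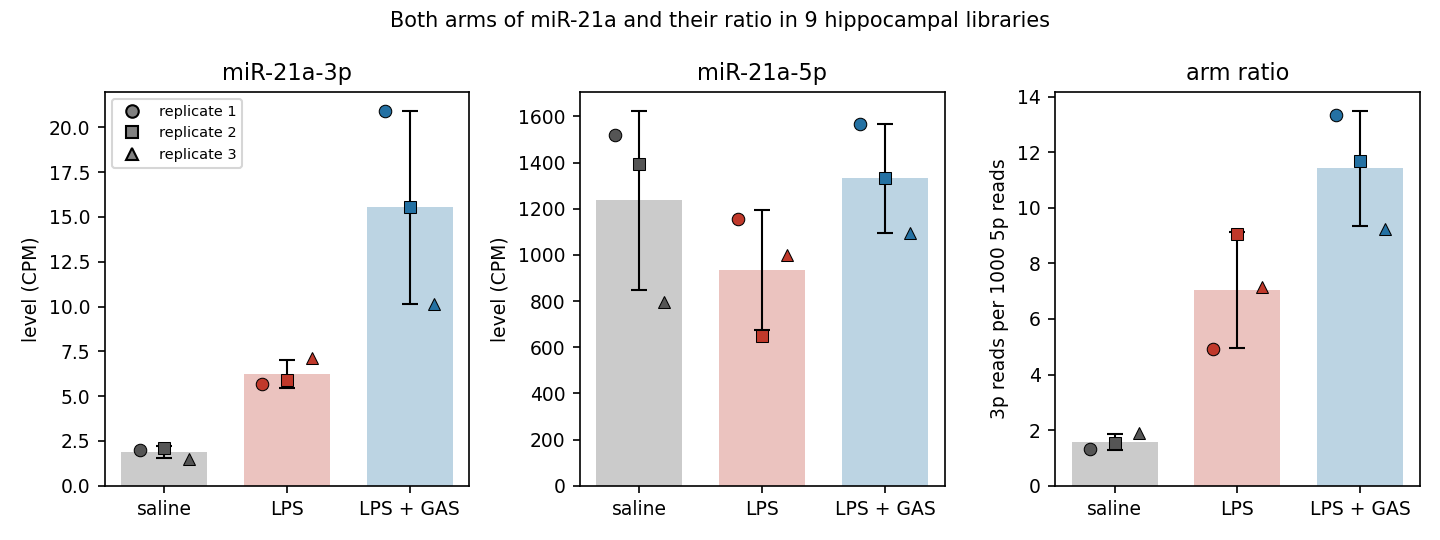
Level of miR-21a-3p and miR-21a-5p in CPM and the number of 3p reads per 1000 5p reads, by group (bars: mean, error bars: SD of 3 libraries, symbols: libraries). The 3p arm and the ratio are higher from group to group without overlap, from 1.88 to 15.5 CPM and from 1.58 to 11.4 reads on average, whereas the 5p arm overlaps in all groups.

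The ratio within a library does not depend on the scaling between libraries. Saline libraries had 1.32, 1.52 and 1.90 reads of miR-21a-3p per 1000 reads of miR-21a-5p, LPS libraries 4.91, 9.08 and 7.15 and LPS + GAS libraries 13.3, 11.7 and 9.23. The group means were 1.58 ± 0.296, 7.05 ± 2.08 and 11.4 ± 2.07 (SD, n = 3 each). LPS was 4.46 times saline and LPS + GAS 7.22 times saline, with wide gaps between libraries. LPS + GAS was 1.62 times LPS, and there the groups nearly met, with 9.23 in the lowest LPS + GAS library and 9.08 in the highest LPS library. The 3p arm made up 0.915% of the reads of both arms in that LPS + GAS library (exact 95% Clopper-Pearson interval 0.749% to 1.11%) and 0.899% in that LPS library (0.703% to 1.13%), a gap within the counting error. The highest share with saline was 0.190% (0.106% to 0.313%) and the lowest with LPS 0.489% (0.370% to 0.633%). These intervals belong to single libraries and cover counting error only, not the spread between libraries, and the sources do not say whether the reads were counted by molecular identifiers. Read the other way, a saline library held 758, 657 or 526 reads of the guide for each passenger read, an LPS library 204, 110 or 140 and an LPS + GAS library 74.9, 85.6 or 108. The passenger thus stayed the minor strand in all 9 libraries.

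On the log2 scale the ratio was −9.28 ± 0.27 with saline, −7.18 ± 0.45 with LPS and −6.46 ± 0.27 with LPS + GAS (SD, n = 3 each). Within groups the ratio had a pooled SD of 0.34, that of miR-21a-3p alone was 0.31 and that of miR-21a-5p alone 0.41, the arm levels taken as log2(CPM + 1). In 8 of the 9 libraries both arms were on the same side of their group means. The exception was LPS replicate 1, with the 3p arm 0.11 below and the 5p arm 0.35 above. In saline replicate 3 and LPS replicate 2 the 5p arm was 0.58 and 0.48 below its group mean, while the 3p arm was 0.19 and 0.06 below. At the low CPM of the 3p arm, 1.51 to 2.12 with saline, the added 1 shrinks its SD and deviations. It hardly changes those of the 5p arm, so the 2 arms are not on an equal scale here. In LPS + GAS replicate 1 both arms were above their means, by 0.46 (3p) and 0.25 (5p), and in replicate 3 both were below, by 0.52 and 0.27.

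Fitted with edgeR over the 628 miRNAs, miR-21a-3p had log2 fold changes of 1.72 (standard error 0.30) from saline to LPS, 1.32 (0.28) from LPS to LPS + GAS and 3.04 (0.31) from saline to LPS + GAS. These comparisons share libraries, so they are not separate observations. By size of change miR-21a-3p was in place 3, 15 and 1 of 628, and by upward change in place 1, 14 and 1. The corresponding values of miR-21a-5p were −0.40 (0.29), 0.51 (0.29) and 0.11 (0.29), in place 95, 106 and 408. The median over all 628 miRNAs was −0.04, 0.00 and −0.03. MiR-21a-5p's change from saline to LPS + GAS turned to −0.13 without saline replicate 3, the library with the lowest 5p level of its group.

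Calls required an adjusted p no higher than 0.05 together with a log2 fold change of 1 or more in either direction. In LPS vs saline edgeR's quasi-likelihood test called 0 of 628 miRNAs (0%), with 15 at an unadjusted p under 0.05, while DESeq2 called 1, miR-21a-3p, and limma-voom 0. Of all 628 miRNAs, 12 (1.91%) were higher with LPS without overlap between the groups. Between LPS + GAS and LPS, edgeR, DESeq2 and limma-voom each called 0 (0%), with 23, 23 and 21 at an unadjusted p under 0.05, and 26 (4.14%) were higher without overlap. For LPS + GAS vs saline edgeR called 1 (0.159%), which was miR-21a-3p, as did DESeq2 and limma-voom, and 16 (2.55%) were higher without overlap. MiR-21a-3p is in all 3 counts without overlap. Since it was chosen by these values, neither its calls nor these counts are a test of it, and nothing is read from them.

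MiRNAs measured at a like level give a scale for these numbers. Within a factor of 2 of the mean level of miR-21a-3p over all 9 libraries (7.88 CPM) there were 113 other miRNAs. With saline miR-21a-3p had a mean of 1.88 CPM, below that window, so the match in level does not hold in that group. In LPS vs saline the log2 fold changes of the 113 ran from −5.91 (miR-532-3p) to 1.40 (miR-107-3p), and 1 was at least as large in size as that of miR-21a-3p. From LPS to LPS + GAS they ran from −1.10 (miR-107-3p) to 4.0 (miR-532-3p), with 1 at least as large. From saline to LPS + GAS they ran from −1.91 (miR-532-3p) to 1.19 (miR-10b-5p), with 0 at least as large. Of the 47 miRNAs within a factor of 2 of miR-21a-5p (1168 CPM), 3, 2 and 31 had a fold change at least as large as its own in the 3 comparisons.

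In most other precursors of similar abundance the arm ratio differed little between groups. With both arms together, miR-21a had 1169 CPM, and 51 other precursors were within a factor of 3, from 390 to 3135 CPM, of which 28 had mainly the 5p arm and 23 mainly the 3p arm. Their log2 ratios differed between LPS and saline by a median size of 0.16, and 42 of the 51 differed by less than 0.5. The difference of miR-21a was 2.10 (standard error 0.28 from limma), in place 1 by size of these 52 precursors and of all 177. Of the 51, 4 differed by at least 1. MiR-341, at −1.84 (1.13), and miR-532, at 1.83 (3.51), were the nearest in size to miR-21a, and in both the groups overlapped. Between LPS + GAS and LPS the median size was 0.17 and miR-21a differed by 0.72 (0.28), in place 3 of 52 and 19 of 177. Between LPS + GAS and saline it was 0.20 and miR-21a differed by 2.82 (0.28), in place 2 of 52 and of 177, behind miR-532. The ratio of miR-532 rested on libraries that disagreed within groups, such as 29, 12498 and 8 reads of its 5p arm and 3, 0 and 3 of its 3p arm with LPS, and its pooled SD was 5.20, the highest of the 51. MiR-21a had a pooled SD of 0.34 against a median of 0.36 in the 51, of which 28 varied more. Counting alone would give it 0.22, from the counting variance averaged over the 9 libraries. That average rests mostly on the saline libraries, with 15 to 24 reads of the 3p arm against a mean of 82.4.

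The arm ratios were fitted with limma over the 177 precursors. In LPS vs saline it called 1 (0.565%), which was miR-21a, with 5 at an unadjusted p under 0.05, and 4 precursors (2.26%) had a higher 3p to 5p ratio without overlap. For LPS + GAS vs LPS it called 0 (0%), with 8 at an unadjusted p under 0.05, and 5 (2.82%) were higher without overlap. For LPS + GAS vs saline it called 1 (0.565%), again miR-21a, with 8 at an unadjusted p under 0.05, and 8 (4.52%) were higher without overlap. The ratio of miR-21a is among the precursors without overlap in all 3 comparisons. Since the pair was selected on this ratio too, its calls and these counts describe it only and are not a test of it.

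**Figure D2:**
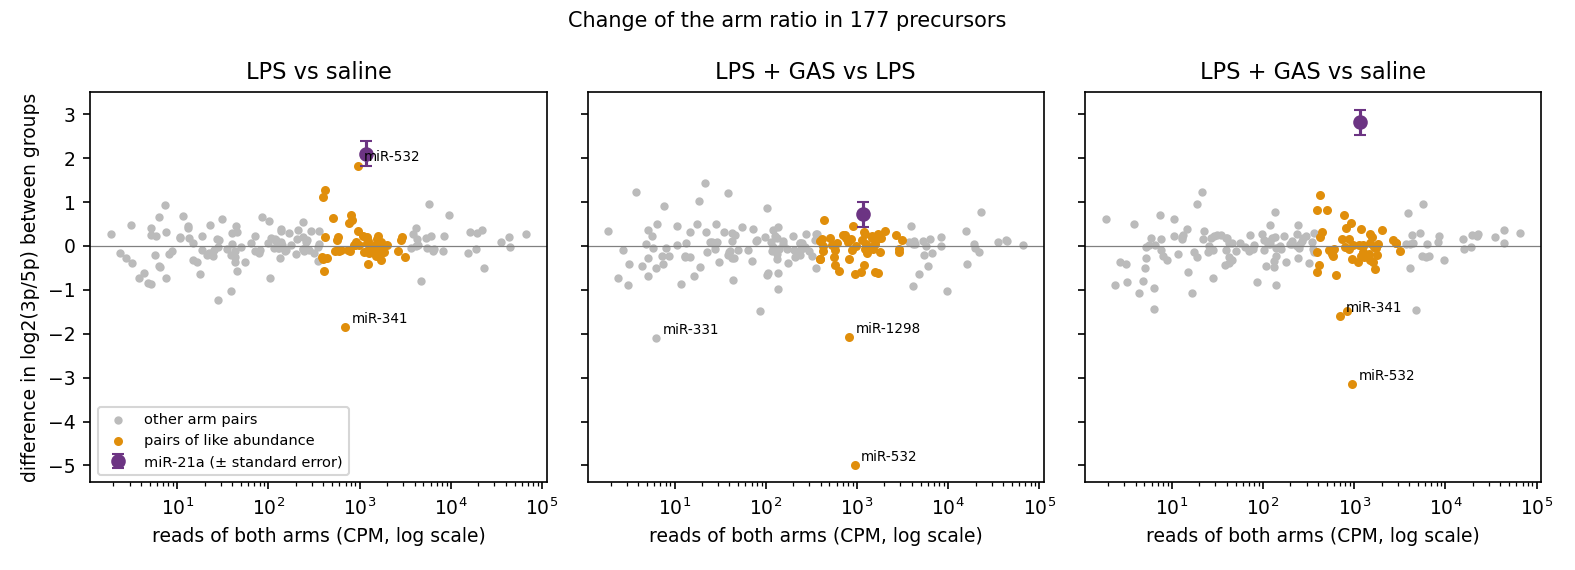
Difference in log2(3p/5p) between groups for 177 precursors against the level of both arms together (CPM, log axis), one panel per comparison. MiR-21a (purple, with its standard error) is at 2.10, 0.72 and 2.82, while most precursors of like abundance (orange) lie near 0, with miR-532 the farthest at −4.98 in LPS + GAS vs LPS.

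In the 10 precursors nearest in abundance the group means of the ratio were closer together than in miR-21a. MiR-15a, a miRNA of the miR-16 family, had almost the same one-sidedness as miR-21a had with saline. It had 1.49, 1.19 and 1.36 reads of the 3p arm per 1000 of the 5p arm in saline, LPS and LPS + GAS (means of the ratios of single libraries). MiR-125a had 9.11, 9.77 and 9.24, near the value that miR-21a reached with LPS and GAS. MiR-383 had 8.67, 7.88 and 8.74. The widest difference between group means in log2 ratio was 0.42 for miR-15a, 0.11 for miR-125a, 0.14 for miR-383 and 0.59 for miR-26b, the highest of the 10, against 2.82 for miR-21a. The lowest was 0.02 for miR-381. Their libraries varied around these means, with pooled SDs of 0.75 for miR-487b, 0.70 for miR-26b and 0.44 for miR-15a, all above the 0.34 of miR-21a. From the lowest 3p share upward, miR-21a was in place 3 of the 52 precursors with saline, 10 with LPS and 14 with LPS + GAS.

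**Figure D3:**
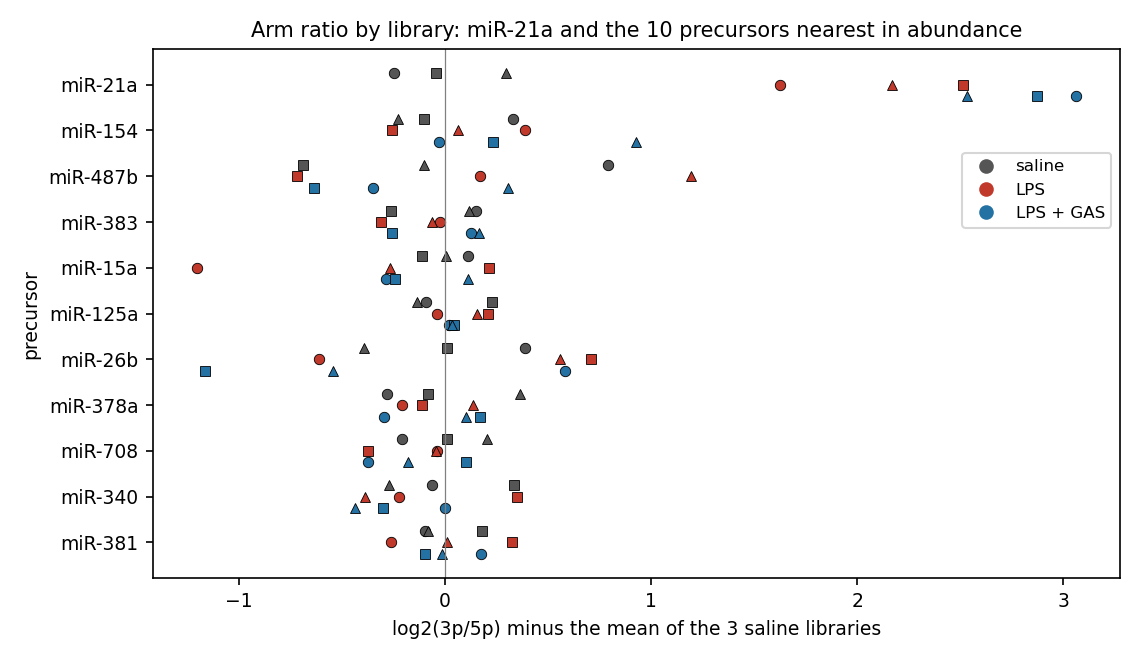
Log2(3p/5p) of each library minus the mean of the 3 saline libraries, for miR-21a and the 10 precursors nearest to it in the level of both arms (symbols: replicates 1 to 3, colours: groups). The LPS and LPS + GAS libraries of miR-21a are all to the right of its saline libraries, and those of the other 10 precursors scatter around 0.

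Outside miR-21a, arm ratios that differed without overlap between groups did so by smaller amounts in both comparisons with saline. In LPS vs saline the next in size was miR-322, a miRNA of the miR-15/16 seed family, whose ratio differed by 1.27 (standard error 0.39). Its minor arm miR-322-3p had 64, 42 and 28 reads with saline and 71, 99 and 146 with LPS, and its 5p arm 4464, 5095 and 3741 and then 3971, 5782 and 3543. The less abundant arm of miR-322 was higher (log2 fold change 1.24), with −0.03 for its 5p arm, whereas miR-21a had 1.72 and −0.40. MiR-495 followed with 1.12 (0.34), but there the 3p arm, which was higher by 0.97, is the abundant one. MiR-200b and miR-3099 had lower ratios, by −1.23 and −1.02, with 20.3 and 13.1 reads of the minor arm on average. In LPS + GAS vs saline miR-322 was next to miR-21a again, at 1.16 (0.39), ahead of miR-873a (−1.07), miR-551b (−0.82) and miR-495 (0.81). In LPS + GAS vs LPS the largest such differences were those of miR-551b (−1.48), miR-298 (1.23), miR-3099 (1.21), miR-151 (−0.92) and miR-362 (0.91), all larger than that of miR-21a.

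**Figure D4:**
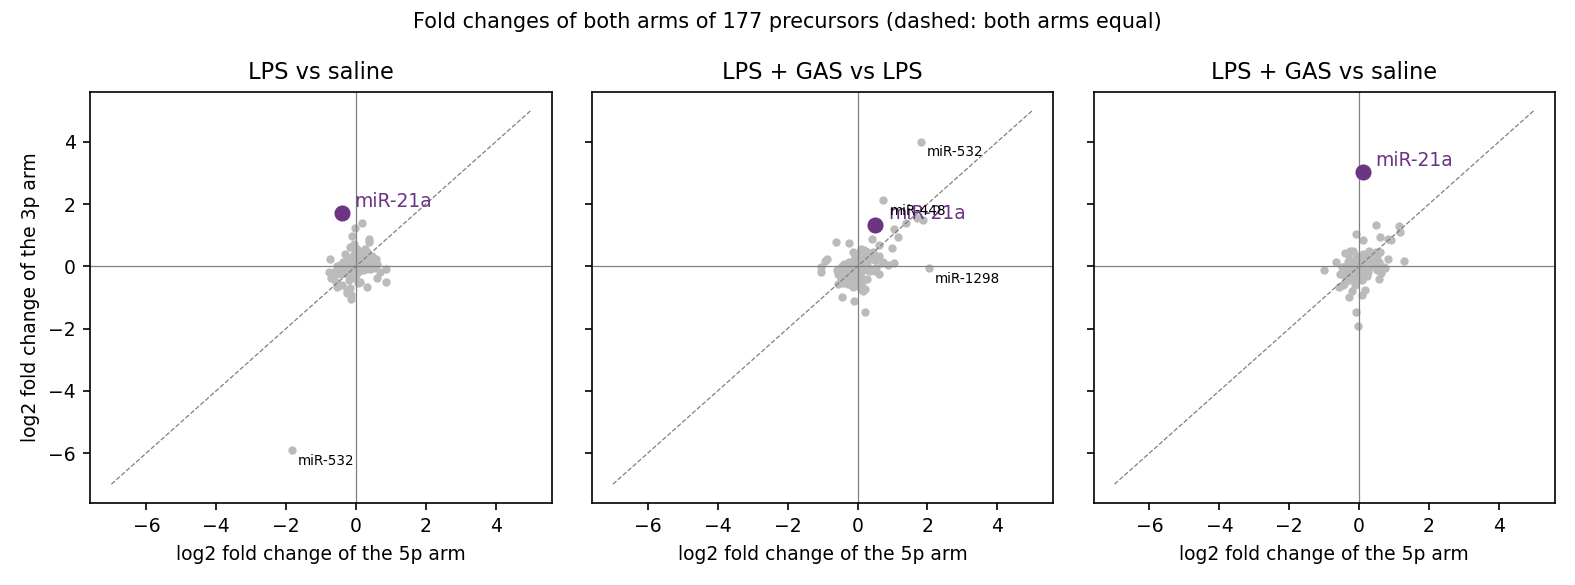
Log2 fold change of the 3p arm against that of the 5p arm for 177 precursors, one panel per comparison, with the line on which both arms change equally. MiR-21a (purple) lies above the line at 1.72 (3p) and −0.40 (5p), at 1.32 and 0.51, and at 3.04 and 0.11, and miR-532 is the farthest in the first 2 panels.

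The 2 arms resembled different miRNAs across the 9 libraries. Likeness was the root mean square difference of log2(CPM + 1) values centred on their own mean, so that a low value means a like profile. For miR-21a-3p the nearest of 627 miRNAs were miR-7b-3p (0.72), miR-92a-1-5p (0.74), miR-155-5p (0.80), miR-322-3p (0.80) and miR-26a-1-3p (0.84), against a median of 1.09, and none was close when set beside its own spread of 1.04. MiR-92a-1-5p had a mean of 1.28 CPM, where the added 1 shrinks differences between libraries. MiR-21a-5p came only in place 139, at 1.03. MiR-7b-3p, a passenger strand of the neuronal and neuroendocrine miR-7 family, had 45.7, 46.8 and 44.5 CPM with saline, 58.6, 70.7 and 56.2 with LPS and 80.8, 85.0 and 80.1 with LPS + GAS. It had the order of groups seen in miR-21a-3p, without overlap, over a narrower range. MiR-155-5p, a miRNA induced in activated macrophages and microglia, had 6.40, 3.18 and 7.56 CPM with saline, 5.57, 4.15 and 8.05 with LPS and 11.9, 10.1 and 9.54 with LPS + GAS. It shared with miR-21a-3p the higher level with LPS + GAS, and its saline and LPS libraries overlapped. Both were named for their likeness, so their profiles are not tested.

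The profile nearest to that of miR-21a-5p was the one of miR-338-3p (0.16), a miRNA of oligodendrocytes, the myelinating glia, whose maturation it promotes, followed by miR-3065-5p (0.20), miR-338-5p (0.24), miR-6516-5p (0.25) and miR-181b-5p (0.25). MiR-3065-5p and miR-6516-5p had means of 3.34 and 1.87 CPM, where the added 1 shrinks differences between libraries. The median over 627 miRNAs was 0.49 and the spread of miR-21a-5p itself was 0.41, and miR-21a-3p came in place 610. The first 3 come from one place in the genome and are shown because of that, again with the seed in capitals.
miR-338-3p: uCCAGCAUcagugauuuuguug
miR-338-5p: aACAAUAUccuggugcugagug
miR-3065-5p: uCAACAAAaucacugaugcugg
The Mir338 hairpin lies on the minus strand at chr11:120014765-120014862 and the Mir3065 hairpin on the plus strand at chr11:120014767-120014853, so that 21 bases of miR-338-3p are the exact antisense of miR-3065-5p. They are not 3 independent loci, and none shares a seed with miR-21a-5p.

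MiR-338-3p had 1106, 1224 and 592 CPM with saline, 786, 400.3 and 730 with LPS and 1056, 945 and 632 with LPS + GAS. As with miR-21a-5p, replicate 3 was the lowest saline library and replicate 2 the lowest LPS library. The level of miR-21a-5p was 1.14 to 1.73 times that of miR-338-3p over the 9 libraries, a narrower range than that of either level by itself. MiR-219a-2-3p, another oligodendrocyte miRNA, had 3383, 3329 and 2146 CPM with saline, 2050, 982 and 2764 with LPS and 3252, 2597 and 1732 with LPS + GAS, with the same lowest libraries in the saline and LPS groups. MiR-338-3p was named for its likeness in these libraries, so its narrow ratio and shared lowest libraries follow from that choice. This likeness is a description over 9 libraries that share their scaling.

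**Figure D5:**
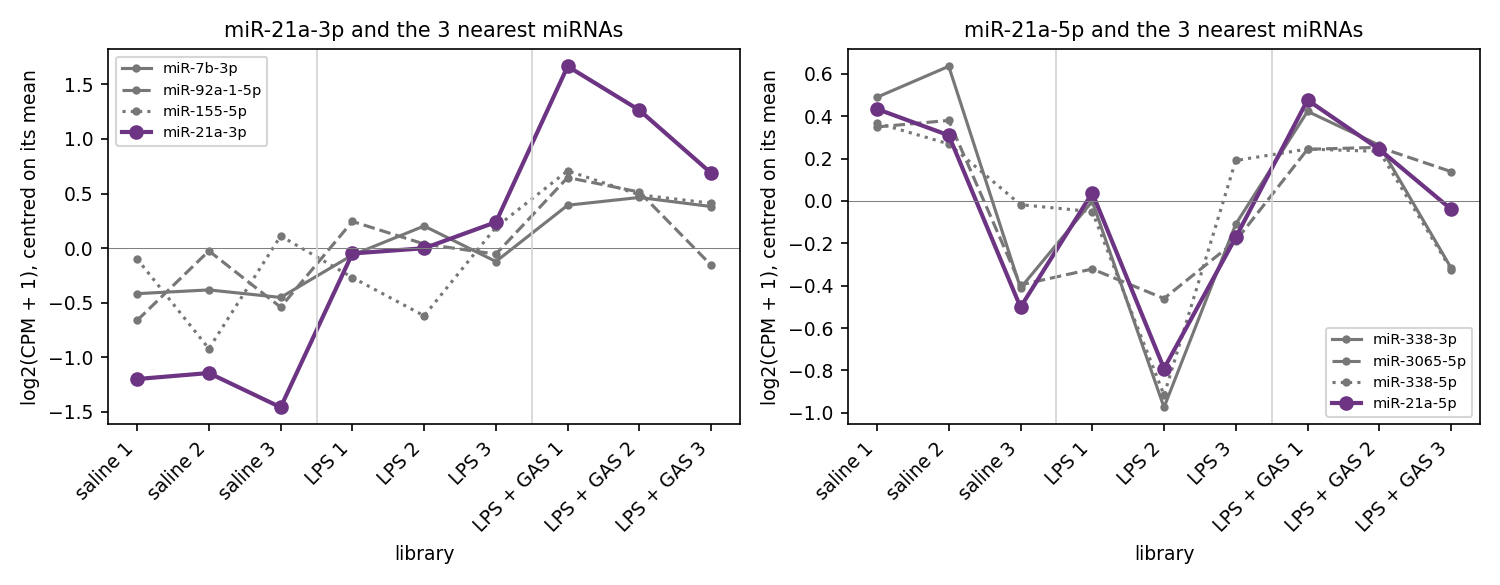
Log2(CPM + 1) of each library, centred on the mean of the 9 libraries, for each arm of miR-21a (purple) and the 3 miRNAs with the nearest profile. MiR-21a-3p is higher from group to group and spans a wider range than its neighbours, and miR-21a-5p runs with miR-338-3p, low in saline replicate 3 and in LPS replicate 2.

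Among miRNAs known to be induced in inflammation, 9 of the 14 rows listed passed the minimum. EdgeR called 0 of the 9 in each of the 3 comparisons, where it called 0%, 0% and 0.159% of all 628, so this count says nothing particular about the list. Their log2 fold changes had a median of 0.09 when LPS was compared with saline, of −0.11 when LPS + GAS was compared with LPS and of −0.02 when it was compared with saline, beside −0.04, 0.00 and −0.03 over all 628. MiR-146a-5p, a target of NF-κB that dampens Toll-like receptor signalling, had 381 ± 90.2, 378 ± 74.8 and 424 ± 33.5 CPM (SD, n = 3 each). MiR-146b-5p, which has the same seed, had 207 ± 22.0, 232 ± 9.38 and 210 ± 21.2 CPM. MiR-132-3p, which responds to CREB in neurons, had 76.2 ± 10.2, 86.7 ± 17.1 and 74.8 ± 18.9 CPM. MiR-155-5p was the highest of the list in both comparisons with LPS + GAS, at 0.83 (standard error 0.34) and 0.88 (0.34). The 5 that did not pass were miR-155-3p, miR-146a-3p, miR-146b-3p and both arms of miR-147, each with at most 5 reads in a library.

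Markers of other cell types were set beside the arms, and their counts of calls are to be read against the same 0%, 0% and 0.159% over all 628 miRNAs. In the choroid plexus and ependyma list 15 of 16 miRNAs passed the minimum and 0 were called, with 1 fitted above 0 when LPS was compared with saline, 14 when LPS + GAS was compared with LPS and 15 when it was compared with saline (medians −0.52, 1.40 and 0.92). Over all 628 the medians were −0.04, 0.00 and −0.03. The list holds both arms of several precursors, so its members are not separate measurements. Their summed level was 9597 to 30705 CPM with saline, 9701 to 23064 with LPS and 12331 to 59208 with LPS + GAS. MiR-204-5p, the most abundant member of the list, had 15402 ± 9971, 13162 ± 6714 and 29097 ± 20674 CPM (SD, n = 3 each). This list was high in only part of the LPS + GAS group, with wide overlap, as its lowest sum there was near the saline median of 11228 CPM. The lowest LPS + GAS library of miR-21a-3p, at 10.1 CPM, was above all its LPS libraries. The red blood cell list, with miR-451a as its main member, passed with 7 of 7 and 0 called, had medians of −0.36, 0.56 and 0.42, and summed to 2085 to 4346 CPM with saline, 2220 to 3295 with LPS and 4632 to 6246 with LPS + GAS. The saline and LPS sums overlapped, and those with LPS + GAS were above both. At an unadjusted p under 0.05 were 0 of its 7 members from saline to LPS, 4 from LPS to LPS + GAS and 0 from saline to LPS + GAS. Over all 628 miRNAs edgeR had 15, 23 and 21 in these comparisons. MiR-486a-5p and miR-486b-5p had identical values in every group and comparison, so the 7 members are not separate measurements. These rows pass or fail a threshold together, and the sums include both. The medians of −0.36 and 0.56 are their shared fold changes.

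In the list of leukocytes and microglia 6 of 7 passed and 0 were called (medians −0.02, 0.27 and 0.41), with sums of 5357 to 5996 CPM with saline, 3119 to 6954 with LPS and 4443 to 6325 with LPS + GAS. Its members differed from each other, from −1.46 (miR-150-3p, of lymphocytes) to 0.73 (miR-223-3p, of myeloid cells) on the log2 scale for LPS + GAS against saline. MiR-150-3p is a minor arm near the floor, with at most 29 reads in a library and means of 2.26 (saline) and 0.82 CPM (LPS + GAS). The abundant arm miR-150-5p, at 5066 and 4725 CPM in these groups, had −0.10 (standard error 0.29) in that comparison. MiR-223-3p had 7.34 ± 3.54, 5.64 ± 1.74 and 12.2 ± 4.18 CPM (SD, n = 3 each). Of the vascular list 5 of 6 passed and 0 were called (medians 0.02, 0.27 and 0.03), with sums of 18609 to 22909, 16418 to 20686 and 19965 to 21028 CPM. The neuronal and oligodendrocyte list had 0 called and medians of −0.08, 0.02 and −0.06, over members that differed. In LPS vs saline the oligodendrocyte miRNAs miR-219a-2-3p and miR-338-3p were both at −0.61 (standard errors 0.37 and 0.34), beside −0.40 for miR-21a-5p. The remaining members had no common direction, with miR-124-3p at 0.35 (0.21), miR-128-3p at 0.24 (0.23), miR-138-5p at −0.02 (0.13) and miR-9-5p at −0.13 (0.17). The summed red blood cell list was higher with LPS + GAS than in any other library, that of the choroid plexus list overlapped between groups, and their part in the level of miR-21a-3p was not tested.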

How the data were processed

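Read counts per mature miRNA, not normalized, were used as deposited by the authors, from small RNA libraries run on a BGISEQ-500. GRCm38.p6 is the build in the submitters' processing notes, and no aligner, counter or miRNA annotation release is named in what was read here. The table also holds a second set of whole numbers named exp, never above the counts and of unstated making, used as an alternative. Its columns of fold changes and p-values were not used.

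The 628 of 1448 miRNAs that reached 10 reads in 3 or more of the 9 libraries were tested with edgeR 4.0.16 (trimmed mean of M values, quasi-likelihood test, Benjamini-Hochberg adjustment, 1 mean per group). Arm ratios, log2((3p reads + 0.5)/(5p reads + 0.5)), were fitted with limma 3.58.1. DESeq2 1.42.0, limma-voom, other filters, the exp values, a replicate block and each library left out were tried. RNAfold 2.7.2 folded the hairpin. Of 1448 rows, 1221 matched RefSeq mature miRNAs by name and sequence. In 27 rows the mature sequence is that of another row, and of 202 precursors with both arms kept 25 were left out because an arm occurs in another precursor.

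The arms and the lists were chosen with earlier results of these data known. Named were both arms, rows with their seeds, the 5 miRNAs nearest in profile to each, the 10 precursors nearest in abundance, up to 5 precursors with the largest ratio difference without overlap in each comparison, those called, and the lists. The miR-532 reads, miR-341, miR-10b-5p and the extremes beside the arms were named after their values were seen.

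Libraries of one group differed far beyond counting noise (chi-square per degree of freedom 170 to 426), so each was 1 replicate. Same-numbered libraries deviated together in all 3 pairs of LPS + GAS vs saline (r = 0.30 to 0.37). In LPS vs saline the pairs differed (r = −0.28 to 0.32, median 0.21), and in LPS + GAS vs LPS r was −0.27 to 0.05. The labels do not say that a number marks a shared batch. On data simulated for LPS vs saline, edgeR recovered 188 of 198 miRNAs changed by 2 on the log2 scale among 620 tested, and limma 30 of 35 changed ratios among 177.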

Additional observations from a re-analysis of the deposited data

How the results depend on the processing

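The 150 alternative values of the arms' fold changes and of the ratio differences moved by less than 1 SD between libraries. Some of them could not move. The ratio difference is a difference of group means, which the replicate block, the stricter filter and another prior variance leave as it is. Leaving out a library of the group not compared also leaves it unchanged. With each library left out, miR-21a-3p stayed on the log2 scale between 1.59 and 1.87 for LPS vs saline, 1.06 to 1.56 in LPS + GAS vs LPS and 2.82 to 3.33 in LPS + GAS vs saline, and the ratio difference from 1.90 to 2.34, 0.48 to 0.92 and 2.70 to 2.97. MiR-21a-5p ranged from −0.64 (without saline replicate 3) to −0.17 (without LPS replicate 2), from 0.32 to 0.69 and from −0.13 to 0.33. With the replicate block miR-21a-3p was at 1.75, 1.26 and 3.01, and the block changed no call. In LPS vs saline, the miRNAs called numbered 2 with no filter on low counts and 1 with DESeq2, against 0. Leaving out libraries gave 0 to 1 there, with 1 without LPS replicate 2 and 1 without LPS + GAS replicate 3, and 0 to 1 in LPS + GAS vs LPS, with 1 without LPS replicate 2. Among precursors matched on the less abundant arm within a factor of 2, the ratio difference in LPS + GAS vs LPS was in place 6, not 3, and from the lowest 3p share miR-21a was in place 1, 4 and 8 with saline, LPS and LPS + GAS, not 3, 10 and 14. With 15 to 24 reads of miR-21a-3p per saline library, the saline ratio is the least precisely counted, and 3 libraries a group limit the comparison of LPS + GAS with LPS.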

Other observations

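The exp values, whole numbers whose making is not stated, treated the 2 arms differently. For miR-21a-3p they equalled the read counts in 8 of 9 libraries and were 153 against 154 in LPS + GAS replicate 2. For miR-21a-5p they were 91.2% to 95.8% of the reads. With exp values in place of reads, the difference in log2 ratio of miR-21a was 2.07 in LPS vs saline.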
